A study of Homo sapiens with 8 samples.

Results

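The genes described here are 36 genes of the NRF2, glutathione and NADPH redox system in SW1990, an established human pancreatic adenocarcinoma cell line. They were chosen by name, as regulators and targets of the transcription factor NRF2 and as enzymes of the glutathione, thioredoxin and NADPH systems. This choice, like that of all further lists, was made with earlier results of these data known. Shares set beside those of all genes are therefore descriptions and no test of the pathway. All 36 were found among the 38637 genes listed in the deposited table. The RNA-seq experiment held 8 libraries, 2 in each of 4 groups. Vector cells carried the empty vector and EBF2-OE cells overexpressed the transcription factor EBF2. Vehicle cells received the carrier alone, and GSK-LSD1 cells received GSK-LSD1, a small-molecule inhibitor of the histone demethylase KDM1A (LSD1), at 2000 µM according to the sample labels. That dose exceeds those the study names for its protein blots, and its unit could not be checked. No time of treatment, promoter of the EBF2 construct or clonal origin of the cells was given in the sources used here. The libraries were numbered 2 and 3 in Vector and EBF2-OE and 1 and 2 in Vehicle and GSK-LSD1, and nothing said whether they came from separate cultures, so that the p-values measure the spread between these libraries, which may be technical.

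NRF2, encoded by NFE2L2, is held in the cytoplasm and marked for degradation by KEAP1. Oxidants and electrophiles modify KEAP1, NRF2 then enters the nucleus with a small MAF protein, and the pair binds antioxidant response elements in front of genes for glutathione synthesis, thioredoxin reduction, NADPH supply, detoxification, export and iron storage. Pancreatic ductal tumour cells are known to rely on this programme to withstand oxidative stress.

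The libraries held between 20453362 and 27054876 counts on genes. EBF2, which checks the overexpression label, stood at 1.32 and 1.20 CPM (counts relative to the library total after TMM scaling over all 8 libraries) in Vector 2 and 3, and at 289 and 4028 CPM in EBF2-OE 2 and 3. The EBF2-OE libraries therefore both had far more EBF2 reads than Vector but lay at very different levels. KDM1A was at 264 and 229 CPM in Vehicle and at 211 and 214 CPM in GSK-LSD1. That transcript level does not check the treatment, since GSK-LSD1 acts on the protein. Of 12 ductal markers, KRT7, KRT8, KRT18 and MUC1 exceeded 123 TPM (a unit scaled to gene length and library total) in all libraries. SOX9 ranged from 4.35 to 39.4 TPM and LCN2 from 1.62 to 12.4 TPM. KRT19 reached at most 1.57 TPM, EPCAM 1.42 TPM and CDH1 1.12 TPM. The other 3, CEACAM6, TFF1 and AGR2, stayed under 1 TPM in all libraries. Markers of immune, endothelial, stromal, acinar, endocrine and liver cells summed to between 72.2 and 88.8 TPM over 22 genes, of which 13 stayed under 1 TPM in all 8 libraries and 5 were listed at 0 in all. The highest of them were COL1A1, with 30.5 to 45.2 TPM, and CD68, with 10.9 to 30.9 TPM.

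The core antioxidant response element, TGACNNNGC in which N is any base, was looked for on both strands in the RefSeq promoter windows of build GRCh38.p14, which run from 250 bases before to 50 bases after each annotated start. Of the 36 genes 27 had a window, and 12 of their 39 windows (30.8%) held the element, in 11 genes, against 13.3% of all 35116 windows. The matches are descriptions of letters and not tested binding sites. The sequences below belong to the 7 of these 11 genes that passed the test under GSK-LSD1 by the adjusted p, KEAP1 as lower and the others as higher. They are shown because they carry the element that NRF2 binds, and genes with no match in their windows passed as well. Each has 10 bases on either side of the element, reads 5′ to 3′ along the strand of the gene, and has the element in capitals. An element that reads GCNNNGTCA lies on the other strand.
GCLM (chr1:93909456-93909464, reverse strand, 34 bases before the start): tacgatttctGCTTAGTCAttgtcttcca
GSTP1 (chr11:67583746-67583754, forward strand, 66 bases before the start): gccggcgccgTGACTCAGCactggggcgg
KEAP1 (chr19:10502817-10502825, reverse strand, 54 bases before the start): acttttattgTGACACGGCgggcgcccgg
KEAP1 (chr19:10502794-10502802, reverse strand, 31 bases before the start): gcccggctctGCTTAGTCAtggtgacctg
ME1 (chr6:83431180-83431188, reverse strand, 137 bases before the start): tctcctgccaTGACTCAGCgcttctcgca
ME1 (chr6:83431032-83431040, reverse strand, 11 bases after the start): gctgcagtcaGCACCGTCAccccagcagc
MGST1 (chr12:16347145-16347153, forward strand, 30 bases after the start): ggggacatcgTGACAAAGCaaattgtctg
PGD (chr1:10398863-10398871, forward strand, 201 bases before the start): cctcgccgggGCAATGTCAtctaggtgct
TXNRD1 (chr12:104215680-104215688, forward strand, 99 bases before the start): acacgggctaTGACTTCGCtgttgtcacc
TXNRD1 (chr12:104215771-104215779, forward strand, 8 bases before the start): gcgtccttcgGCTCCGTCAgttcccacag
TXNRD1 (chr12:104286930-104286938, forward strand, 102 bases before the start): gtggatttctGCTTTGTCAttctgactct

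The other 4 genes with the element were CBR1, EPHX1, GPX2 and IDH1. No available window of ABCC2, AKR1C1, AKR1C2, AKR1C3, FTL, GSTM3, NQO1, OSGIN1, SQSTM1, SRXN1, TALDO1 or TXN held these letters. All of those genes were higher under GSK-LSD1 by the adjusted p, so that genes passed with and without a match in a window. AKR1B1, GCLC, NFE2L2 and TKT had no match in their windows either and did not pass. Sequence outside the windows was not searched, so that a window without these letters does not mean a gene without the element. Windows of HMOX1, SLC7A11, FTH1, PRDX1, PRDX6, GSR, GSS, ABCC3 and AKR1B10 were not used here. Where an annotated gene had several starts, the distance is given from the start of the window in which the element was found first.

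Levels of different genes were compared per length, in TPM. Ferritin led the set. FTH1, the heavy chain with the iron-oxidising site, averaged 6864 ± 2525 TPM in Vehicle (SD, n = 2 libraries) and FTL, the light chain, 2516 ± 54.2 TPM. GSTP1, the main glutathione transferase of many epithelia, stood at 2296 ± 5.54 TPM and PRDX1, a peroxiredoxin, at 1753 ± 35.5 TPM in the same cells. Transketolase (TKT) and thioredoxin (TXN) followed. At the other end, AKR1C1 averaged 3.61 ± 0.633 TPM and AKR1C2 3.36 ± 0.702 TPM in Vehicle, and GPX2, the gastrointestinal glutathione peroxidase, and AKR1B10 stayed below 1 TPM in all groups. GPX2 had 2 to 5 counts in every library and was tested in no comparison. The summed TPM of the 36 genes made up 2.02% and 1.66% of the total in Vehicle 1 and 2 and 2.36% in each GSK-LSD1 library. It made up 1.86% and 2.12% in Vector and 1.94% and 2.09% in EBF2-OE. Most of the gap between the Vehicle libraries lay in ferritin, which summed to 11128 TPM in Vehicle 1 and 7634 TPM in Vehicle 2.

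**Figure D1:**
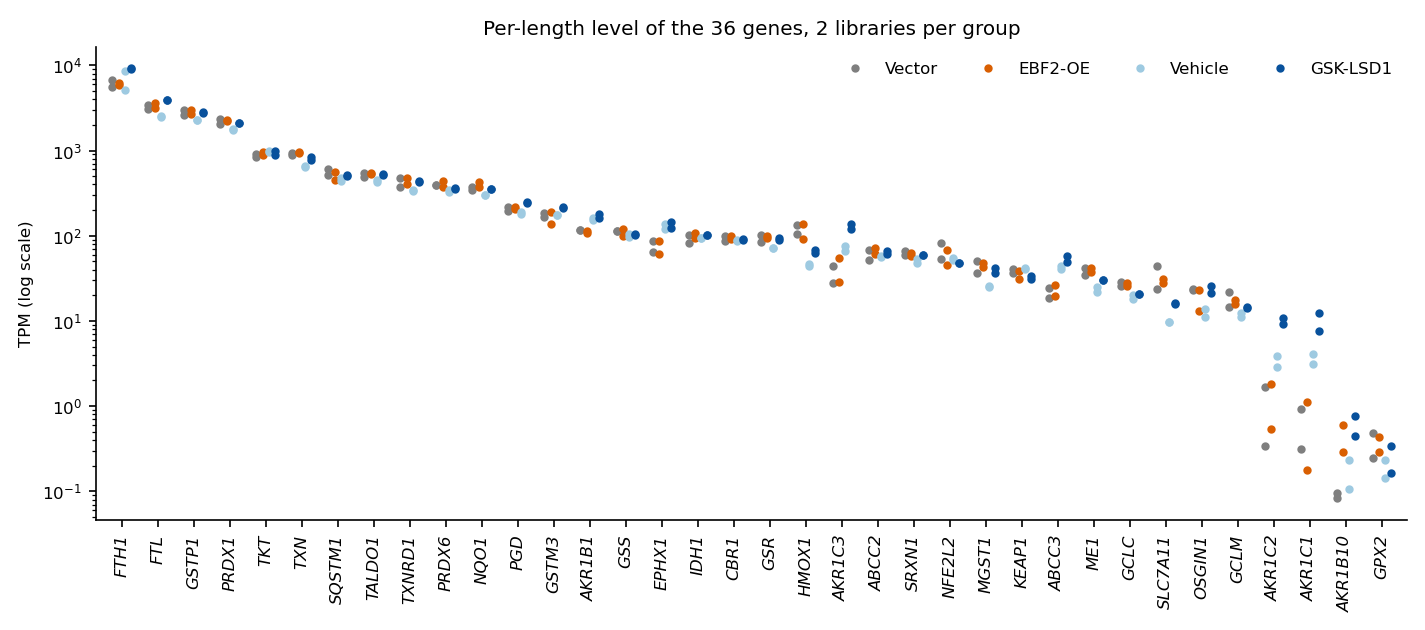
TPM on a log axis for each of the 36 genes, ordered by mean level, with 1 point per library and 1 colour per group. FTH1, FTL, GSTP1 and PRDX1 lie above the other 32 genes in all libraries, and AKR1C1 and AKR1C2 are the genes above 1 TPM in Vehicle whose groups lie farthest apart.

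The question of the GSK-LSD1 experiment was how transcription responds when the H3K4 demethylase KDM1A is inhibited. In GSK-LSD1-treated cells, 7 of the 35 redox genes tested were called higher than in Vehicle and 0 were called lower, where a call needs more than a 1.5-fold difference and a p under 0.05, adjusted by Benjamini-Hochberg, in the quasi-likelihood test of edgeR over the 4 libraries. Over all 16059 genes tested, 2.53% were called higher and 2.04% lower. The 7 genes were the aldo-keto reductases AKR1C1, AKR1C2 and AKR1C3, the cystine importer SLC7A11, the oxidative stress response gene OSGIN1, the microsomal glutathione transferase MGST1 and the ferritin light chain FTL. By the adjusted p alone, 23 of the 35 were higher and 1 was lower, against 9.86% and 8.87% of all genes. In 1 fit over all 8 libraries 1 was higher and 0 lower by the adjusted p, so that the adjusted p-values given for single genes hold for the fit on 4 libraries. The median log2 fold change was 0.33 over the 35 genes and -0.01 over all genes tested. Both GSK-LSD1 libraries lay above both Vehicle libraries for 30 of the 35 genes and below them for 2, against 30.5% and 29.7% of all genes. AKR1B10 passed the filter on low counts through its treated libraries, and without it 29 of 34 lay above, with a median of 0.33. In bulk RNA, a change in every cell and a change in the share of cells that express a gene cannot be told apart. The summed level of the 12 ductal markers moved as well, from 7137 to 7247 TPM in Vehicle to 5329 to 5370 TPM in GSK-LSD1. Most of that sum came from the keratins KRT7 (459 to 841 TPM over all libraries), KRT8 (2186 to 3094 TPM) and KRT18 (1516 to 3200 TPM). The part of this shift in these results was not tested.

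**Figure D2:**
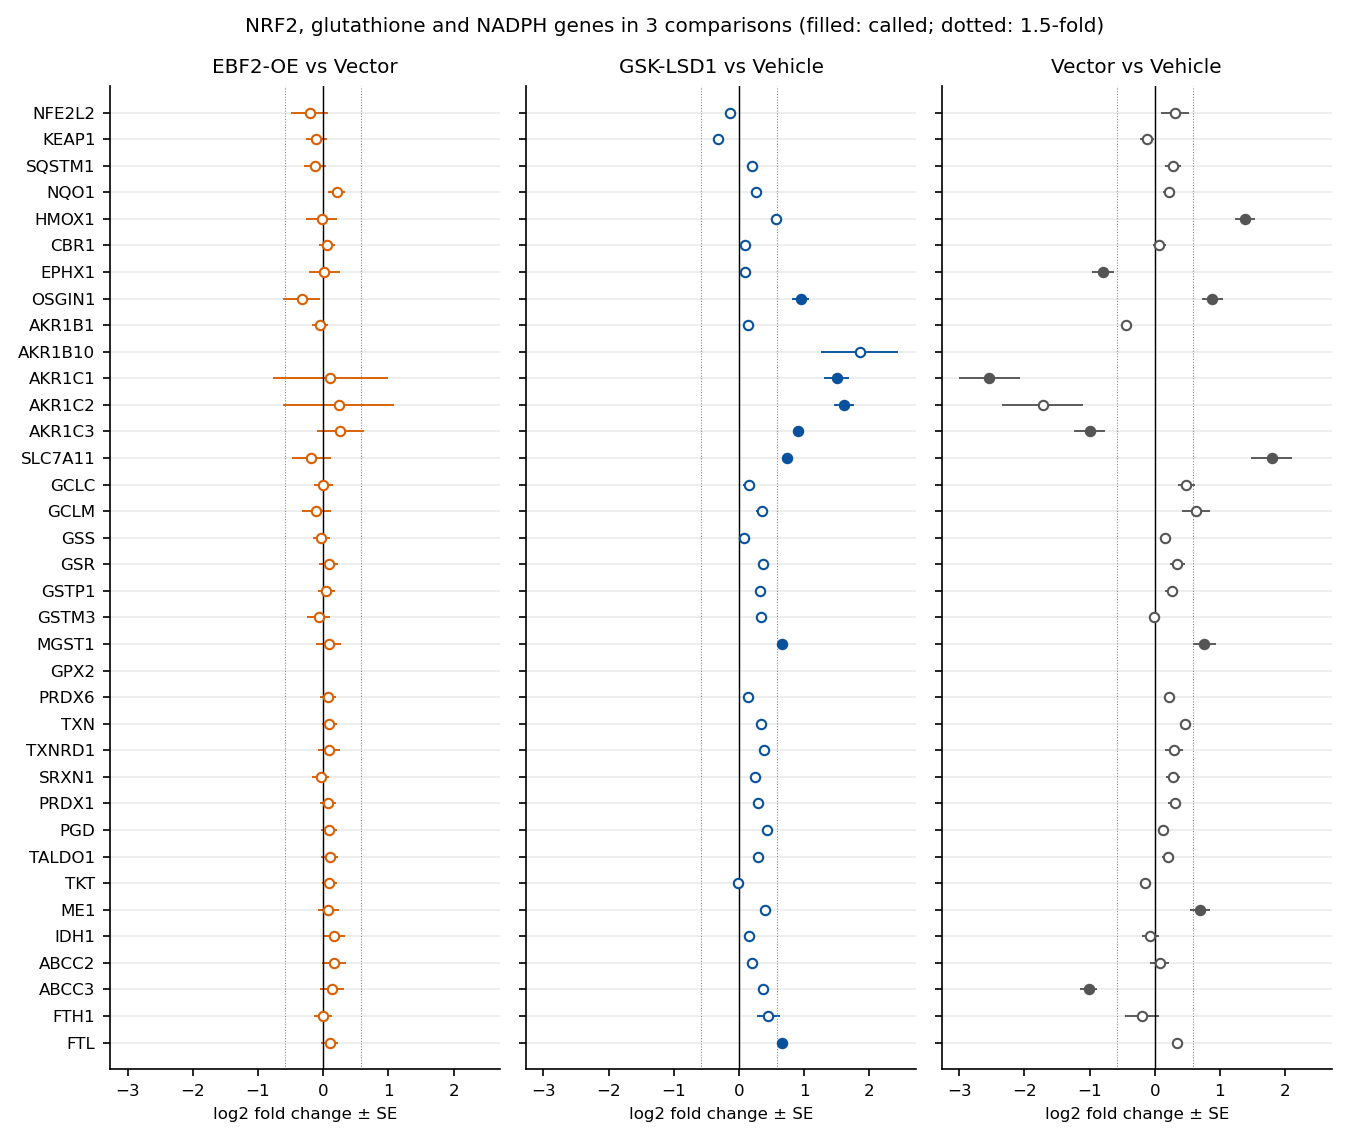
Log2 fold change with its standard error for each gene, by role from top to bottom, in EBF2-OE against Vector, GSK-LSD1 against Vehicle and Vector against Vehicle, from edgeR. Filled points were called, dotted lines mark a 1.5-fold change, and untested genes have no point. Under GSK-LSD1 7 filled points lie to the right and none to the left, and in EBF2-OE no point is filled.

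Of the 3 regulators, 1 was higher and 1 lower by the adjusted p, and 0 were called. KEAP1, the adaptor that sends NRF2 to degradation, was at 49.0 and 46.4 CPM in Vehicle and at 40.1 and 36.6 CPM in GSK-LSD1. It was the only redox gene lower by the adjusted p, at -0.32 on the log2 scale (standard error 0.0715, adjusted p = 0.012), a 1.24-fold decrease that stayed under the fold limit. NFE2L2, which encodes NRF2, was at 75.2 and 70.9 CPM in Vehicle and at 67.9 and 65.3 CPM in GSK-LSD1. The groups did not overlap, but the log2 difference of -0.14 did not pass the test (adjusted p = 0.145). SQSTM1, the autophagy receptor p62 that sequesters KEAP1, was at 603 and 534 CPM in Vehicle and at 668 and 638 CPM in GSK-LSD1 (log2 fold change 0.20, adjusted p = 0.0386). NRF2 is regulated mainly through its protein, which was not measured here.

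Of the 7 called genes, AKR1C2 and AKR1C1 had the largest fold changes. AKR1C1, AKR1C2 and AKR1C3 use NADPH to reduce ketosteroids, prostaglandins and lipid-derived carbonyls, and they lie side by side on chromosome 10 of hg38. AKR1C1 (chr10:4963415-4983283, forward strand) stood at 10.2 and 7.77 CPM in Vehicle and at 19.9 and 30.8 CPM in GSK-LSD1. It was 2.82-fold higher (log2 fold change 1.497, standard error 0.193, adjusted p = 0.000542). AKR1C2 (chr10:4987775-5018000, reverse strand) stood at 6.13 and 4.45 CPM in Vehicle and at 15.1 and 17.2 CPM in GSK-LSD1. Its fold change of 3.05 was the largest among the called genes (log2 1.61, standard error 0.151, adjusted p = 7.65e-05). AKR1C3 (chr10:5048781-5107686, forward strand), known for making testosterone from androstenedione, stood at 55.6 and 48.0 CPM in Vehicle and at 92.7 and 102 CPM in GSK-LSD1, 1.88-fold higher (log2 0.91, standard error 0.0784, adjusted p = 4.23e-05). For each of the 3 genes the lower treated library lay above the higher Vehicle library. Reads can be shared between these paralogs. Of the 150-base windows of its canonical transcript, AKR1C1 shared 7.91% with AKR1C2 and 0% with AKR1C3. Only identical windows were counted as shared, so that reads of nearly identical stretches are not covered. AKR1C2 shared 16.5% with AKR1C1, and AKR1C3 shared 2.12% with AKR1C2, so that the split between AKR1C1 and AKR1C2 is the less certain. Counted as 1 locus, the summed reads of the 3 genes were called higher. Most of that sum was AKR1C3, which averaged 51.8 CPM in Vehicle, against 8.99 CPM for AKR1C1 and 5.29 CPM for AKR1C2. The sum therefore does not check the split between AKR1C1 and AKR1C2.

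The likeness of AKR1C1 and AKR1C2 extends to their promoters. The 120 bases before an annotated start of each gene (RefSeq, GRCh38.p14) are shown 5′ to 3′ along the gene, with capitals where a base of AKR1C2 or AKR1C3 differs from the aligned AKR1C1 sequence or has no partner in it. For AKR1C2 the start used lies within the span that the deposited table lists for the gene, not at its outer end. The 3 genes are shown because all were called higher.
AKR1C1 (chr10:4963295-4963414, forward strand): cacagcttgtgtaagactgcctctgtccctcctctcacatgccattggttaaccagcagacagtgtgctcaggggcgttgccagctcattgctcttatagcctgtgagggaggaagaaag
AKR1C2 (chr10:5003858-5003977, reverse strand): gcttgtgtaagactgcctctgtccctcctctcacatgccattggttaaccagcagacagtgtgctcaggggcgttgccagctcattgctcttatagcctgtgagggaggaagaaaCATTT
AKR1C3 (chr10:5048661-5048780, forward strand): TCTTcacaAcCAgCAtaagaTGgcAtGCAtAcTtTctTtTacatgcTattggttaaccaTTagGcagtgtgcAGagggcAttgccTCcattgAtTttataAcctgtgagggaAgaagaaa

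In that alignment AKR1C2 matched AKR1C1 at 92.7% of positions and AKR1C3 at 70.2%. None of the 3 sequences held the antioxidant response element.

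The other aldo-keto reductases gave smaller or less certain values. AKR1B1, aldose reductase, was at 174 and 160 CPM in Vehicle and at 178 and 193 CPM in GSK-LSD1 and did not pass the test (log2 fold change 0.14, adjusted p = 0.12). AKR1B10, a reductase of retinal and cytotoxic aldehydes, was seen in 6 and 3 reads of the Vehicle libraries and in 11 and 18 reads of the GSK-LSD1 libraries. The ratio of the summed counts, scaled for library depth, was 3.7 with an exact 95% interval of 1.71 to 8.89 that covers counting error only, and the adjusted p was 0.0534.

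**Figure D3:**
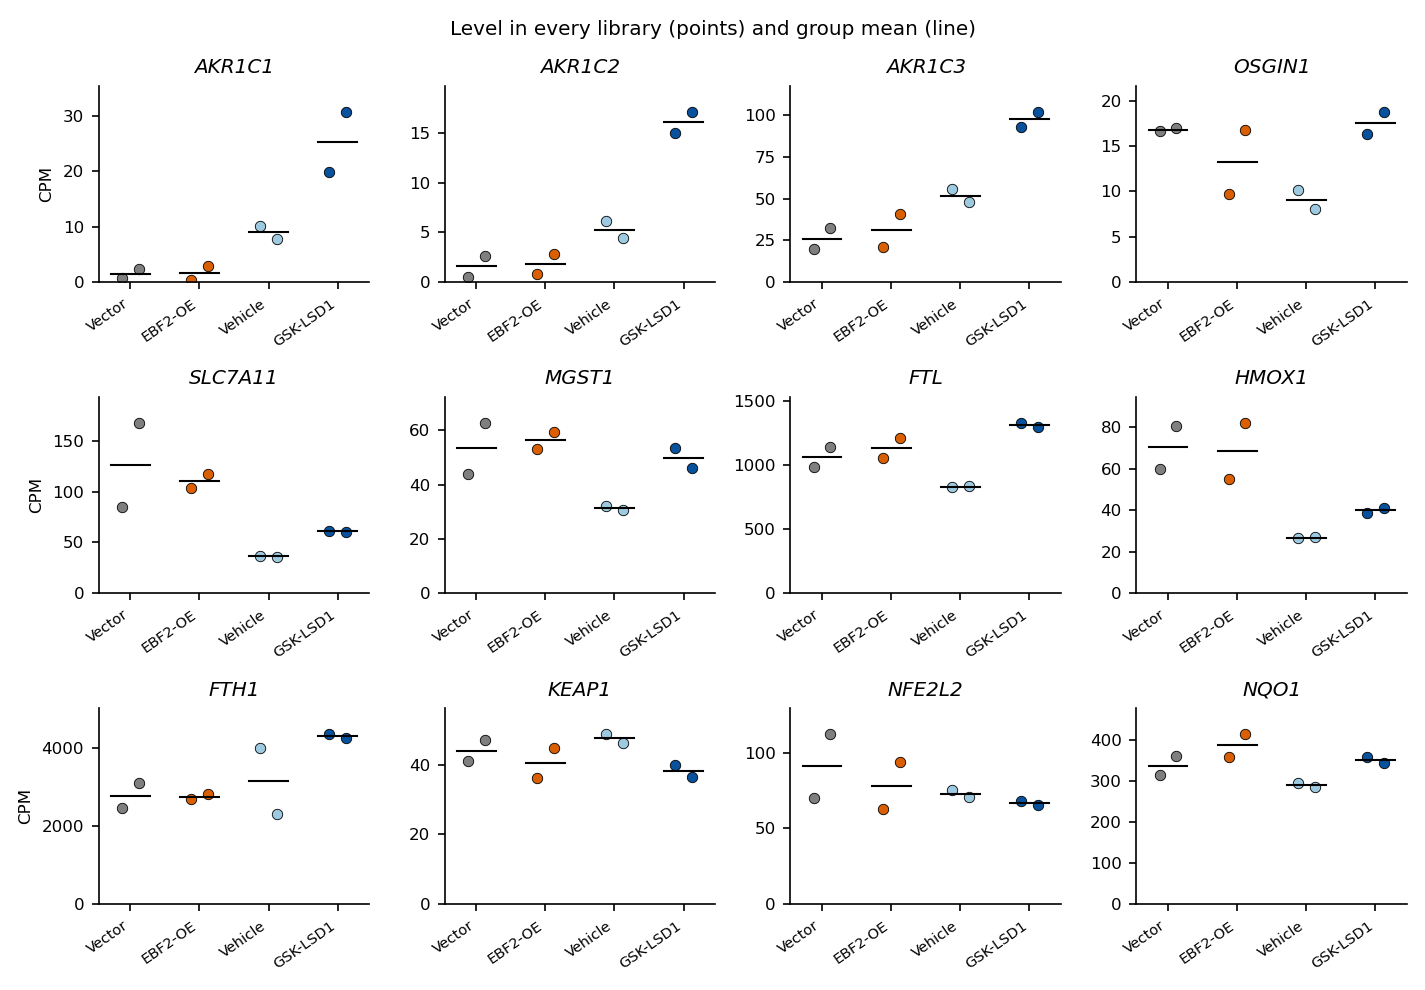
CPM in every library (points) and the mean of each group (line) for 12 of the genes, on linear axes that start at 0. The GSK-LSD1 points lie above the Vehicle points for the 7 called genes and for HMOX1, while FTH1 in Vehicle is split between 4007 and 2298 CPM.

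Among the quinone, heme, carbonyl and epoxide enzymes and OSGIN1, OSGIN1 and HMOX1 had the largest log2 values. OSGIN1, a gene induced by oxidised phospholipids, stood at 10.1 and 8.06 CPM in Vehicle and at 16.4 and 18.8 CPM in GSK-LSD1. It was 1.93-fold higher (log2 0.95, standard error 0.13, adjusted p = 0.000769). HMOX1, heme oxygenase 1, which opens the heme ring and frees its iron, stood at 26.4 and 27.2 CPM in Vehicle and at 38.8 and 41.2 CPM in GSK-LSD1. With a fold change of 1.49 it fell just short of the fold limit (log2 0.57, standard error 0.0724, adjusted p = 0.000467). NQO1, the quinone reductase often read as a measure of NRF2 activity, was at 294 and 285 CPM in Vehicle and at 357 and 343 CPM in GSK-LSD1, 1.2-fold higher (log2 0.27, adjusted p = 0.0037). Carbonyl reductase CBR1 and epoxide hydrolase EPHX1 did not pass the test, with log2 fold changes of 0.09 (adjusted p = 0.376) and 0.10 (adjusted p = 0.4545). The EPHX1 libraries of both groups overlapped.

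Of the 5 genes of cystine import and glutathione synthesis and reduction, 1 was called and 3 were higher by the adjusted p. SLC7A11, the light chain of the cystine and glutamate exchanger, stood at 36.8 and 35.8 CPM in Vehicle and at 60.9 and 60.6 CPM in GSK-LSD1, with libraries of a group within 1.03-fold of each other. It was 1.67-fold higher (log2 0.74, standard error 0.0627, adjusted p = 3.81e-05). Of glutamate-cysteine ligase, the rate-limiting step of glutathione synthesis, the modifier subunit GCLM was at 30.2 and 26.6 CPM in Vehicle and at 36.1 and 36.2 CPM in GSK-LSD1 (log2 0.35, adjusted p = 0.0134). The catalytic subunit GCLC was at 30.0 and 25.9 CPM in Vehicle and at 31.7 and 30.6 CPM in GSK-LSD1 and did not pass (log2 0.15, adjusted p = 0.256). Glutathione synthetase GSS, the last step, had overlapping libraries (log2 0.08, adjusted p = 0.353). Glutathione reductase GSR, which regenerates glutathione with NADPH, was at 84.9 and 82.2 CPM in Vehicle and at 107 and 109 CPM in GSK-LSD1 (log2 0.37, adjusted p = 0.00103).

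Of the glutathione transferases and peroxidases, MGST1 passed both limits. MGST1, a membrane-bound transferase with peroxidase activity, stood at 32.1 and 30.6 CPM in Vehicle and at 53.3 and 46.0 CPM in GSK-LSD1, 1.58-fold higher (log2 0.66, standard error 0.0815, adjusted p = 0.000421). Without GSK-LSD1 1 its log2 fold change was 0.55, under the fold limit. The cytosolic transferases GSTP1 (log2 0.32, adjusted p = 0.000875) and GSTM3 (log2 0.33, adjusted p = 0.000987) were both about 1.25-fold higher. PRDX6, a peroxiredoxin that uses glutathione, had a log2 difference of 0.13 (adjusted p = 0.0871). GPX2 had 5 counts in Vehicle and 6 in GSK-LSD1, and a difference was not detectable at this depth (depth-scaled ratio 1.38, exact 95% interval 0.351 to 5.71).

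All 4 genes of the thioredoxin system were higher by the adjusted p, and none reached the fold limit. TXNRD1, thioredoxin reductase, was at 553 CPM in both Vehicle libraries and at 749 and 705 CPM in GSK-LSD1 (log2 0.39, standard error 0.0455, adjusted p = 0.000283). TXN, its substrate thioredoxin, was at 185 and 179 CPM in Vehicle and at 242 and 220 CPM in GSK-LSD1 (log2 0.34, adjusted p = 0.00243). PRDX1 (log2 0.29, adjusted p = 0.00137) and SRXN1, the sulfiredoxin that repairs overoxidised peroxiredoxins (log2 0.25, adjusted p = 0.0282), gave smaller values. SRXN1 shared 90.2% of its 150-base windows with a readthrough transcript of its locus, so that its count depends on how such reads were assigned.

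In the NADPH and pentose phosphate group, 3 of 5 genes were higher by the adjusted p and 0 were called. PGD, the second NADPH-forming dehydrogenase of the pentose phosphate pathway, was at 171 and 177 CPM in Vehicle and at 236 and 234 CPM in GSK-LSD1, 1.35-fold higher (log2 0.43, standard error 0.0494, adjusted p = 0.000251). Malic enzyme ME1 was at 32.2 and 27.9 CPM in Vehicle and at 40.3 and 39.4 CPM in GSK-LSD1 (log2 0.41, adjusted p = 0.00636). Transaldolase TALDO1 gave a log2 fold change of 0.29 (adjusted p = 0.00377), while its partner transketolase TKT had overlapping libraries between 1095 and 1196 CPM and a log2 difference of -0.02 (standard error 0.0486, adjusted p = 0.84). The cytosolic isocitrate dehydrogenase IDH1 had a log2 difference of 0.16 (adjusted p = 0.0555).

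Both export pumps were higher by the adjusted p. ABCC3, which carries glucuronide and glutathione conjugates across the basolateral membrane, was at 91.3 and 95.7 CPM in Vehicle and at 112 and 130 CPM in GSK-LSD1 (log2 0.37, adjusted p = 0.00478). ABCC2, its apical counterpart, gave 0.20 (adjusted p = 0.0208).

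The ferritin chains, which store iron in a shared shell, differed in how well they were measured. FTL (chr19:48965309-48966879, forward strand) stood at 831 and 837 CPM in Vehicle and at 1335 and 1304 CPM in GSK-LSD1. It was 1.58-fold higher with the smallest standard error of the 35 genes (log2 0.66, standard error 0.039, adjusted p = 3.66e-06). FTH1 (chr11:61964285-61967634, reverse strand) stood at 4007 and 2298 CPM in Vehicle 1 and 2 and at 4366 and 4252 CPM in GSK-LSD1, and its log2 difference of 0.45 did not pass the test (adjusted p = 0.102). Without Vehicle 1 the log2 fold change was 0.90, and without Vehicle 2 it was 0.10. BEST1, which was looked at after its values were seen, overlaps FTH1 on the opposite strand, and without a stated strand setting reads of the overlap cannot be told apart. The ratio of BEST1 to FTH1 counts lay between 0.586 and 0.639 in 7 libraries and was 0.343 in Vehicle 1. In that library FTH1 had 100026 counts against 63557 in Vehicle 2, while BEST1 had 34345 against 37221. The counts listed for BEST1 were 1.93-fold higher in GSK-LSD1 (log2 0.95, standard error 0.0389, adjusted p = 3.02e-07). How many of them came from FTH1 could not be told.

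These calls rest on an estimate of spread from 4 libraries. In 1 fit over all 8 libraries, which includes the wider spread of the EBF2 experiment, FTL was called (adjusted p = 0.0317) and the other 6 genes were not, with adjusted p between 0.139 for MGST1 and 0.284 for AKR1C1 at nearly the same fold changes. Over all 16558 genes tested in that fit, 85 were called higher and 15 lower. DESeq2 on the 4 libraries called the same 7 genes.

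Further genes of the pathway were listed as well. Of 113 listed genes 106 were tested under GSK-LSD1, of which 3 (2.83%) were called higher, close to the 2.53% of all genes, and 1 was called lower. By the adjusted p alone 33 (31.1%) were higher and 5 (4.72%) lower, against the 9.86% and 8.87% of all genes. ABCG2, an efflux pump for drugs and porphyrins, stood at 2.40 and 3.15 CPM in Vehicle and at 5.60 and 4.79 CPM in GSK-LSD1 (log2 0.89, standard error 0.187, adjusted p = 0.00805). SOD2, the manganese superoxide dismutase of mitochondria, stood at 109 and 112 CPM in Vehicle and at 176 CPM in both GSK-LSD1 libraries (log2 0.67, standard error 0.0494, adjusted p = 1.67e-05). PIR, an iron-binding nuclear protein and NRF2 target, stood at 42.6 and 42.8 CPM in Vehicle and at 68.8 and 64.5 CPM in GSK-LSD1 (log2 0.64, standard error 0.0636, adjusted p = 0.000111). All 3 had treated libraries above both controls. TXNIP, the inhibitor that binds reduced thioredoxin, went the other way, from 228 and 255 CPM in Vehicle to 128 and 130 CPM in GSK-LSD1 (log2 -0.91, standard error 0.0606, adjusted p = 8.99e-06). Of the 20 further NRF2 targets tested, 11 were higher by the adjusted p and 0 lower, and of the 32 further glutathione genes 11 were higher and 0 lower, with the largest value for the glutathione-degrading gamma-glutamyltransferase GGT1 (log2 0.49, adjusted p = 0.000337). Among 19 NRF2 partners and regulators 1 was higher and 1 lower, and the largest difference, a log2 of -0.45 for the repressor BACH2, did not pass (adjusted p = 0.116). Of the 20 further thioredoxin, peroxiredoxin and dismutase genes 8 were higher and 2 lower. The 15 further NADPH and pentose phosphate genes gave 2 higher and 2 lower, with the largest value for the lactonase PGLS (log2 -0.47, adjusted p = 0.0309). PGLS was at 123 and 83.9 CPM in Vehicle 1 and 2 and at 75.2 and 74.1 CPM in GSK-LSD1, so that its size depended much on Vehicle 1.

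The EBF2 experiment asked how transcription responds to more EBF2. Between EBF2-OE and Vector, 0 of the 34 redox genes tested were called higher and 0 lower, against 0% and 0% of the 15560 genes tested, and EBF2 itself was not called (adjusted p of 1 after rounding). DESeq2 called 6 genes higher and 1 lower in all, of which 0 were redox genes. At an unadjusted p under 0.05, 0 of the 34 were found, against 1.34% of all genes. For 0 of the 34 did both EBF2-OE libraries lie above or below both Vector libraries, against 11% and 11.4% of all genes. The log2 fold changes ran from -0.33 for OSGIN1 to 0.26 for AKR1C3 with a median of 0.08, and their median standard error was 0.161. Without Vector 2 the median was -0.07 and without EBF2-OE 3 it was -0.02, so that its sign rested on single libraries.

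Values of the main genes show how wide this spread was. NQO1, with the smallest p of the set, was at 315 and 359 CPM in Vector and at 359 and 415 CPM in EBF2-OE, and the groups touched (log2 0.21, standard error 0.134). SLC7A11 was at 84.4 and 168 CPM in Vector and at 104 and 117 CPM in EBF2-OE, with both treated libraries between the controls. OSGIN1 was at 16.64 and 17 CPM in Vector and at 9.73 and 16.8 CPM in EBF2-OE (log2 -0.33, standard error 0.279). AKR1C1 ranged from 0.756 to 2.31 CPM in Vector and from 0.447 to 2.82 CPM in EBF2-OE, with a standard error of 0.883 on the log2 scale. At such a spread the absence of a call does not show that these genes were unaffected. AKR1B10 had 2 counts in each Vector library and 6 and 14 counts in the EBF2-OE libraries. It was not tested, and its depth-scaled count ratio of 5.24 had an exact 95% interval of 1.75 to 21.1 for counting error only. The regulators NFE2L2 (log2 -0.21), KEAP1 (log2 -0.11) and SQSTM1 (log2 -0.13) all had overlapping libraries. The 5 NADPH and pentose phosphate genes had log2 differences between 0.08 and 0.17. FTH1 and FTL gave 0.00 and 0.10. Of the 106 further pathway genes tested 0 were called. The largest values per list were -0.92 for TXNIP, 0.78 for the transferase GSTM2, 0.34 for PIR, 0.32 for the NRF2 relative NFE2L3 and 0.26 for the mitochondrial malic enzyme ME3, none past the test.

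Whether the treatments acted differently on these genes was tested directly, as the difference of their log2 fold changes in 1 fit over all 8 libraries. By edgeR 0 of the 35 redox genes differed at an adjusted p under 0.05, against 0% of the 16558 genes tested, and 5 did at an unadjusted p under 0.05, against 7.66% of all genes. Those 5 were FTL, OSGIN1, PGD, SLC7A11 and MGST1, each with the lower value in the EBF2 experiment. FTL had the smallest adjusted p, at 0.327, with a log2 difference of -0.57 (standard error 0.143). By this main test, the calls under GSK-LSD1 and their absence in EBF2-OE are thus not shown to be a difference between the treatments. DESeq2 found 1 of the 35 genes, OSGIN1, to differ. Without a low-count filter edgeR found 7, namely AKR1C1, AKR1C2, AKR1C3, FTH1, FTL, OSGIN1 and SLC7A11, each with the lower value in the EBF2 experiment. The result thus depended on the filter, and shares over all genes were not counted for these 2 settings.

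The controls of the experiments were compared to show where these genes stood before any treatment. Against Vehicle, 5 of 34 redox genes were called higher in Vector and 4 lower, against 5.79% and 10.2% of the 16019 genes tested. SLC7A11 was higher in Vector by a log2 of 1.79 (standard error 0.311, adjusted p = 0.0162) and HMOX1 by 1.39 (standard error 0.154, adjusted p = 0.00828). OSGIN1 (log2 0.88), MGST1 (log2 0.76) and ME1 (log2 0.69) were also called higher. AKR1C1 was lower in Vector by 5.8-fold (log2 -2.54, standard error 0.463, adjusted p = 0.0181), with a log2 of -3.55 without Vector 3 and -1.96 without Vector 2. Also called lower were AKR1C3 by 1.998-fold (log2 -0.998), ABCC3 by 2.02-fold (log2 -1.01) and EPHX1 by 1.73-fold (log2 -0.79). The summed ductal markers, again mostly KRT7, KRT8 and KRT18, were at 4648 to 4966 TPM in Vector against 7137 to 7247 TPM in Vehicle. Of 11 markers of other cell types tested 5 were called lower and 1 higher. The part of either marker list in these results was not tested. The experiment and the kind of control, empty vector or carrier, cannot be told apart here. With either Vehicle library left out, 0 of these genes were called in either direction, and over all genes tested the calls fell to 2 higher and 10 lower without Vehicle 1 and to 34 higher and 201 lower without Vehicle 2. The spread then came from the Vector pair alone. The log2 fold changes stayed close, at 1.81 and 1.77 for SLC7A11 and 1.36 and 1.41 for HMOX1. Vehicle stands in this comparison and in that of GSK-LSD1, so that their fold changes share libraries. Side by side, the log2 fold changes of GSK-LSD1 and of Vector against Vehicle were 0.74 and 1.79 for SLC7A11, 0.95 and 0.88 for OSGIN1, 0.66 and 0.76 for MGST1, 1.497 and -2.54 for AKR1C1, and 0.91 and -0.998 for AKR1C3.

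Libraries of a group were not equally alike. Over the 34 redox genes compared, Vector 3 was higher than Vector 2 for 31 and EBF2-OE 3 was higher than EBF2-OE 2 for 27. Vehicle 2 was higher than Vehicle 1 for 9 and GSK-LSD1 2 was higher than GSK-LSD1 1 for 12. Such directions were not counted over all genes, so that they are not shown to be particular to the redox genes. The median absolute log2 ratio between the libraries of a group was 0.286 in Vector and 0.194 in EBF2-OE, against 0.0753 in Vehicle and 0.0665 in GSK-LSD1. Over all 15260 genes compared it was 0.205, 0.229, 0.0939 and 0.0956. The widest gaps were 5.11-fold for AKR1C2 in Vector, 6.3-fold for AKR1C1 in EBF2-OE, 1.74-fold for FTH1 in Vehicle and 1.55-fold for AKR1C1 in GSK-LSD1. In 3 of the 4 groups the widest gap thus fell on an AKR1C gene.

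**Figure D4:**
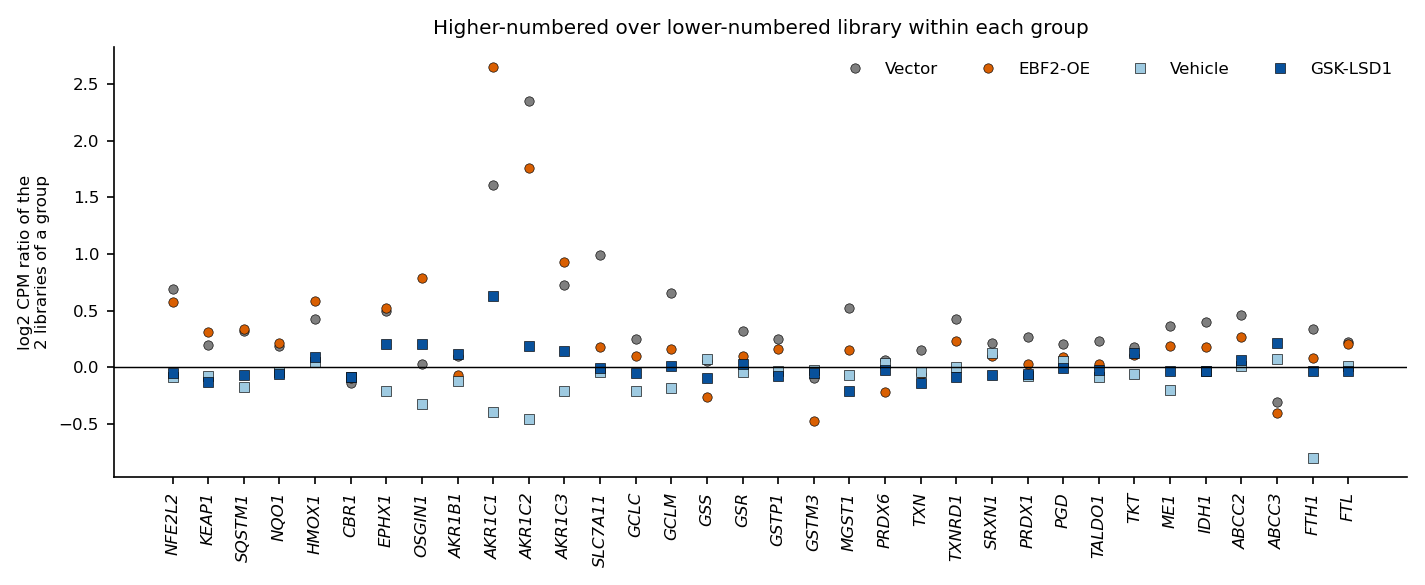
Log2 ratio of the CPM in the higher-numbered library over the lower-numbered library of each group, for the 34 genes compared. Grey and orange points (Vector, EBF2-OE) lie mostly above 0 and reach 2.35 and 2.66 at AKR1C2 and AKR1C1, whereas the blue squares (Vehicle, GSK-LSD1) lie closer to 0, with the widest at FTH1 in Vehicle and AKR1C1 in GSK-LSD1.

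Some of the counts can hold reads of neighbouring genes. A listed gene overlapped 10 of the 36 genes on the opposite strand and 3 on the same strand, and 23 were overlapped by none. Besides BEST1 at FTH1, the overlapping genes with the most reads were MGAT4B at SQSTM1, MMACHC at PRDX1 and TMEM63A at EPHX1. TMEM63A counts were between 0.318 and 0.743 of those of EPHX1.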

How the data were processed

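The authors sequenced poly(A)-selected RNA with paired ends, aligned the reads to hg38 with HISAT2 and counted them per gene with HTSeq. Versions, annotation and strand setting are not given in the sources used here. The deposited table holds raw counts and TPM, which the authors computed from the counts and the listed gene lengths. Without a strand setting, reads cannot be divided between genes that overlap on opposite strands.

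The tests of raw counts used R 4.3.3 and edgeR 4.0.16 (quasi-likelihood, two-sided) after filterByExpr with a minimum count of 10 and TMM scaling, on the 4 libraries of each comparison, with Benjamini-Hochberg adjustment over all genes tested. A call needed a fold change over 1.5 and an adjusted p under 0.05. The standard error was taken from the test statistic. Levels in CPM used TMM factors over all 8 libraries. The deposited TPM served to compare genes. Low counts were compared as ratios scaled for library depth, with an exact binomial interval. The difference between treatments was tested in 1 fit over 8 libraries.

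The 36 genes and all lists were chosen with earlier results of these data known. Named genes are all 36, EBF2, KDM1A, and of the further lists the called genes or the largest value per list and treatment comparison. The alternatives were DESeq2 1.42.0, its size factors in edgeR, other low-count filters, all 8 libraries in 1 fit, no fold limit, unadjusted p, the replicate number as a block, the AKR1C genes summed, and each library left out in turn. The tests were tried once per comparison on simulated counts. Of genes changed by a log2 of 1, edgeR called 52.7% for EBF2-OE against Vector, 100% for GSK-LSD1 against Vehicle and 88.4% for Vector against Vehicle. At a log2 of 2 it called 100% in each. In the same order, 24, 7 and 35 unchanged genes were also called. Only genes above a set level were changed, which left out low genes such as AKR1C1 in the EBF2 experiment. Each gene was drawn on its own from its fitted spread. In the real EBF2-OE libraries EBF2, at a log2 of 10.75, was not called. The simulated shares therefore do not show which changes that comparison would have found. Transcript windows came from the canonical GENCODE transcript of each gene and were compared with all GENCODE transcripts. Promoters came from RefSeq. Proteins, histone marks and the reads were not analysed here.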

Additional observations from a re-analysis of the deposited data

How the results depend on the processing

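Under GSK-LSD1, AKR1C1, AKR1C2, AKR1C3, OSGIN1, SLC7A11 and FTL were called whichever of the 4 libraries was left out, at both stricter and looser count filters (for the AKR1C genes also as 1 locus) and by DESeq2. MGST1 lost its call without GSK-LSD1 1, HMOX1 gained one without Vehicle 2 or GSK-LSD1 1, and FTH1 gained one without Vehicle 1. With all 8 libraries in 1 fit, 1 redox gene was called higher and 0 lower. Of the further pathway genes 1 was called higher and 0 lower. Over all 16558 genes tested in that fit, 85 were called higher and 15 lower. With no fold limit, 23 redox genes were higher and 1 lower under GSK-LSD1, against 9.86% and 8.87% of all genes. The median log2 fold change of the redox genes under GSK-LSD1 lay between 0.28 and 0.34 with 1 library left out, and was lowest without GSK-LSD1 1.

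Between Vector and Vehicle, 8 of the 34 redox genes tested were higher and 5 lower with no fold limit. Over all 16019 genes tested, 2172 were higher and 2122 lower by that rule. With 1 library left out, the median log2 fold change of the redox genes lay between 0.12 without Vector 3 and 0.31 without Vector 2. The test of the difference between treatments called 1 redox gene by DESeq2 and 7 by edgeR without a low-count filter, named above, and the cause was not tested. Leaving out a library left 1 library in a group, which was then assumed to vary like the other group.

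The numbers in the labels are shared by EBF2-OE and Vector and by GSK-LSD1 and Vehicle. With only 2 pairs each and no stated meaning, they were not taken to pair the samples. The correlation of the deviations of same-numbered libraries was 0.345 between EBF2-OE and Vector and -0.0323 between GSK-LSD1 and Vehicle over all genes tested, and 0.784 and -0.375 over the redox genes tested. With a replicate block, 0 redox genes were called between EBF2-OE and Vector (4 genes higher and 1 lower in all). Under GSK-LSD1 8 redox genes were called higher, with AKR1B10 added (420 genes higher and 343 lower in all). Vector and Vehicle share 1 number, so that no block could be fitted. With 2 libraries a group, small changes of variable genes such as AKR1C1 in the EBF2 experiment were not resolved, and genes with few counts, such as GPX2, were below what this depth can show.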
